A study of Mus musculus with 3 samples.

Results

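The CC and CXC chemokine ligands described here are 9 genes of 24067 in the deposited expression table, taken by symbol: Ccl2, Ccl3, Ccl4, Ccl6, Ccl7, Ccl9, Cxcl2, Cxcl16 and Pf4. RNA was sequenced from mouse primary pre-osteoclasts, the mononuclear cells that carry tartrate-resistant acid phosphatase and fuse into osteoclasts. The 3 groups were cells with Ift88 shRNA under orbital shear stress (genotype Ift88 knockdown), cells with control shRNA under orbital shear stress (genotype WT), and static cells with control shRNA and no such treatment (genotype WT). All 3 had MCSF and RANKL for 2 days, and shear lasted 24 hours. Each group was 1 library, so no difference has a replicate check, no p-value is given, and every comparison describes these libraries. The sources used here do not give strain, age, animals per culture or the shRNA vector. A static Ift88 shRNA culture was not analysed here, so a knockdown effect under shear and one without it cannot be told apart.

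Chemokines are small secreted proteins that bind G protein-coupled receptors on leukocytes and direct their migration. The CC and CXC families are named for the spacing of the first conserved cysteines, and many ligands share receptors. In bone, chemokines draw monocytic precursors to resorption sites, and several are made by the osteoclast lineage itself after RANKL.

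The genes lie in few loci of GRCm38, by RefSeq coordinates. Ccl2 and Ccl7 are neighbours on chromosome 11 (82035577 to 82047525), and Ccl9, Ccl6, Ccl3 and Ccl4 lie within 92 kb further along it (83572917 to 83664683). Cxcl16 is also on chromosome 11 (70454389 to 70459984), while Pf4 and Cxcl2 lie within 134 kb on chromosome 5 (90772435 to 90905938).

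RefSeq promoter sequence (GRCm38.p6) was matched for 5 of the 9 genes: Cxcl2, Ccl3, Ccl6, Ccl9 and Pf4. Windows that end at the base before the transcript start are shown, because Cxcl2 had the widest range over the libraries and because the neighbours Ccl6 and Ccl9 differed in direction in both comparisons with the Ift88 shRNA library. The windows are chr5:90903749-90903898 (plus strand) for Cxcl2, chr11:83593088-83593187 (minus strand) for Ccl6 and chr11:83578637-83578736 (minus strand) for Ccl9. Capitals mark the overlapping NF-kappaB motif matches of both strands in Cxcl2, and in Ccl6 and Ccl9 the stretch that the best local alignment of their 250 upstream bases placed together.
Cxcl2: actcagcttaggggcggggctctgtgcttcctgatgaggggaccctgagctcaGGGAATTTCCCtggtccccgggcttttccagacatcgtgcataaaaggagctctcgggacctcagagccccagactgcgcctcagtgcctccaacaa
Ccl6: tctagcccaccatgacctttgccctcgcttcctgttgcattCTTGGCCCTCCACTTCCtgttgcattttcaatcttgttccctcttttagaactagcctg
Ccl9: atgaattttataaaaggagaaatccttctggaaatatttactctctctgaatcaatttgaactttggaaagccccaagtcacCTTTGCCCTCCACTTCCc

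The NF-kappaB consensus motif, searched on both strands in the 250 bases upstream, was found in Cxcl2, beginning 97 bases before the start on the plus strand and overlapping a minus-strand match, and in Ccl9, beginning 35 bases before the start on the minus strand. It was present in 7.25% of 32851 promoters in the RefSeq table. The TATA motif TATAAA, searched likewise, was found in Ccl9, with the plus-strand match nearest to the start beginning 92 bases before it and overlapping a minus-strand match, and 12.4% of promoters held it. The ETS motif AGGAAGT was found in Ccl6, 48 bases before the start, and in Pf4, 10 bases before it, with a share of 7.69% of all promoters. The aligned stretch of Ccl6 and Ccl9 was 17 bases long with 16 identical, at -59 to -43 of Ccl6 and -18 to -2 of Ccl9. Other pairs also had short best alignments, mostly at other bases. Ccl6 with Pf4 had 17 of 19 bases identical, at -43 to -24 of Ccl6. Ccl9 with Cxcl2 had 10 of 10, at -91 to -82 of Ccl9. Whether the stretch shared by Ccl6 and Ccl9 is particular to these neighbours was not tested. These matches describe letters in the windows and are not evidence of binding.

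Levels are in FPKM, a unit that divides the fragments of a gene by its transcript length and by the mapped fragments of the library. Low FPKM values are spaced by what 1 fragment is worth, which gave an estimated depth of 35200000 fragments with Ift88 shRNA, 35340000 in the sheared control and 35000000 in the static control. Of the low values, 63.3% to 64.5% were whole fragments within 0.1, so fragment numbers are estimates. Intervals given with ratios are 95% Clopper-Pearson intervals from those estimates and cover counting error only. Ift88 itself was at 1.197 FPKM in the Ift88 shRNA library, 2.71 in the sheared control and 2.98 in the static control, in the direction of the label. All 7 macrophage markers in the table averaged at least 1 FPKM (Csf1r 248 to 272 FPKM). Of the 10 osteoclast markers 7 did (Atp6v0d2 182 to 211 FPKM), while Calcr, Oscar and Ocstamp did not, and no lymphoid marker did. In bulk RNA, fewer cells of a type and less RNA per cell cannot be told apart.

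All 9 genes had a mean of at least 1 FPKM over the 3 libraries. Their summed level was 776 FPKM in the sheared Ift88 shRNA library, 751 in the sheared control and 802 in the static control. The order of the genes by FPKM, which is a level per transcript length, was the same in each library. Pf4 was first and alone gave 40.6%, 41.1% and 38.3% of the sum with Ift88 shRNA, in the sheared control and in the static control. Ccl9, Ccl6, Ccl3, Ccl4, Cxcl16, Ccl2, Ccl7 and Cxcl2 followed. Neighbours within counting error or near it were Ccl9 and Ccl6 in the static library, where the ratio of their levels was 1.02 (0.987 to 1.05), and Ccl4 and Cxcl16 with Ift88 shRNA, at 44.6 and 43.6 FPKM. The CC genes summed to 414 FPKM with Ift88 shRNA, 399 in the sheared control and 446 in the static control, and the CXC genes to 362, 352 and 356 FPKM in the same libraries.

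**Figure D1:**
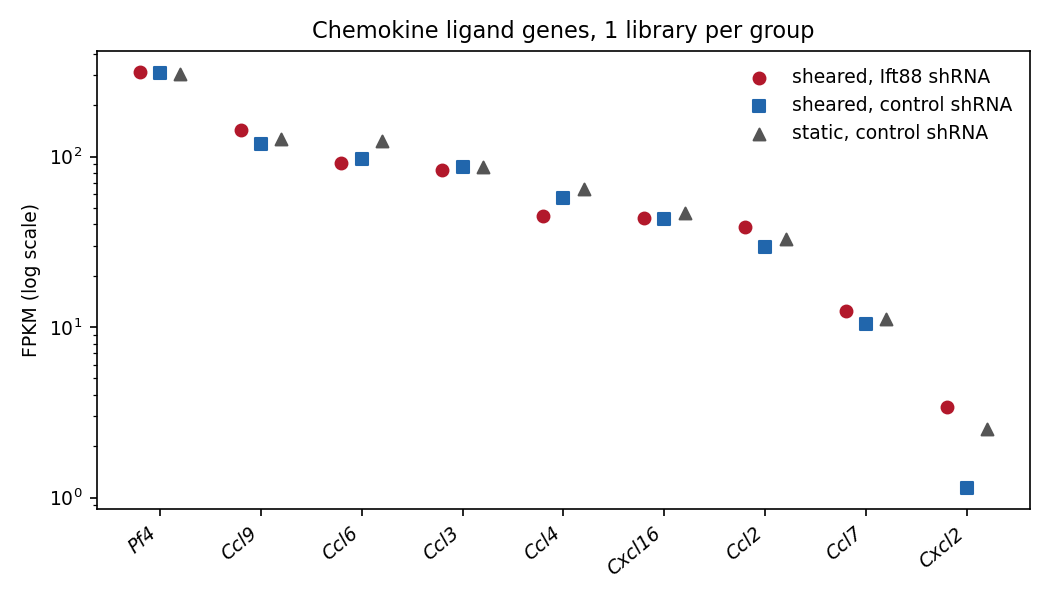
FPKM on a log axis for the 9 chemokine ligand genes, 1 point per library (sheared Ift88 shRNA, sheared control shRNA, static control shRNA), ordered by mean level. Levels run from 1.13 FPKM for Cxcl2 in the sheared control to 315 FPKM for Pf4 with Ift88 shRNA, and the points of one gene lie close together except for Cxcl2.

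Cxcl2, a neutrophil attractant that signals through Cxcr2, had the lowest levels and the widest range. It was at 3.402 FPKM with Ift88 shRNA, 1.13 in the sheared control and 2.53 in the static control, from an estimated 110, 37 and 81 fragments. The sheared control was thus the low library, and the other two lay above it. The ratio of Ift88 shRNA to the sheared control was 3.01 (2.04 to 4.46), and that of the sheared to the static control was 0.447 (0.294 to 0.667). Ift88 shRNA over the static control gave 1.34, with an interval of 0.992 to 1.8003 that includes 1. Among the 10358 genes that averaged 1 FPKM or more, the log2 ratio of (FPKM + 1) for Cxcl2 was the 8th highest in the knockdown comparison and the 23rd lowest in the shear comparison. Cxcl2 transcripts share 61 of 1060 stretches of 50 bases with Cxcl3, another CXC ligand. Cxcl3 was at 0.136 FPKM in both sheared libraries and 0.207 in the static control.

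The other CXC genes, Cxcl16 and Pf4, showed small differences. Cxcl16, a membrane-bound ligand of Cxcr6 that also acts as a scavenger receptor, was at 43.6 FPKM with Ift88 shRNA, 42.8 in the sheared control and 46.9 in the static control. Its shear ratio was 0.913 (0.874 to 0.955) and its knockdown ratio 1.02 (0.974 to 1.07). The 5′ end of Cxcl16 overlaps Zmynd15 in the annotation, and 19.0% of its stretches of 50 bases also occur in Zmynd15 transcripts. Zmynd15 was at 3.35 FPKM with Ift88 shRNA, 2.70 in the sheared control and 3.39 in the static control, and the sources used here do not say whether counting used strand.

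Pf4, platelet factor 4, is known from platelet granules and is also expressed in monocytic cells. It was at 315 FPKM with Ift88 shRNA, 309 in the sheared control and 307 in the static control, between the 232nd and 241st highest of all genes. The knockdown ratio was 1.02 (0.979 to 1.06) and the shear ratio 1.01 (0.964 to 1.05). Markers of megakaryocytes and platelets other than Pf4 were near the floor. The 10 such genes summed to 4.46 FPKM with Ift88 shRNA, 3.92 in the sheared control and 4.26 in the static control, with Gp6 listed at 0 throughout. Treml1, a platelet receptor gene, made up most of that sum at 3.62, 3.13 and 3.398 FPKM in those libraries.

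Ccl2 and Ccl7, monocyte attractants that both signal through Ccr2, were highest with Ift88 shRNA. Ccl2 was at 38.5 FPKM with Ift88 shRNA, 29.5 in the sheared control and 33.0 in the static control, a knockdown ratio of 1.31 (1.18 to 1.45) and a shear ratio of 0.892 (0.801 to 0.994). Ccl7 was at 12.4 FPKM with Ift88 shRNA, 10.4 in the sheared control and 11.2 in the static control. Its knockdown ratio of 1.19 (0.994 to 1.43) and its shear ratio of 0.935 (0.776 to 1.13) both have intervals that include 1. Ccl2 and Ccl7 stood in nearly the same proportion in each library, with Ccl2 at 3.11 times Ccl7 with Ift88 shRNA (2.71 to 3.58), 2.83 times in the sheared control (2.43 to 3.31) and 2.96 times in the static control (2.56 to 3.45).

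Ccl3 and Ccl4, the macrophage inflammatory proteins 1 alpha and 1 beta, attract monocytes and lymphocytes, and Ccl3 signals through Ccr1. Ccl3 was level, at 83.9 FPKM with Ift88 shRNA, 86.4 in the sheared control and 86.4 in the static control. Ccl4 was at 44.6 FPKM with Ift88 shRNA, 57.1 in the sheared control and 64.8 in the static control. Ccl4 was therefore lowest with Ift88 shRNA, while the Ccl3 ratios of 0.971 (0.908 to 1.04) for the knockdown and 0.9998 (0.935 to 1.07) for shear include 1. For Ccl4 the knockdown ratio was 0.781 (0.708 to 0.860), the shear ratio 0.881 (0.806 to 0.962), and Ift88 shRNA over the static control gave 0.688 (0.625 to 0.756). In the RefSeq table the span of Ccl4 overlaps part of Ccl3, but the deposited row of Ccl4 lists 1 transcript. The ratio of Ccl3 to Ccl4 was 1.88 with Ift88 shRNA (1.73 to 2.05), 1.51 in the sheared control (1.40 to 1.64) and 1.33 in the static control (1.23 to 1.44).

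Ccl6 and Ccl9, CC ligands of rodents that signal through Ccr1, are adjacent genes, and Ccl9 is an abundant product of osteoclasts. Ccl6 was at 91.8 FPKM with Ift88 shRNA, 96.8 in the sheared control and 124 in the static control. Ccl9 was at 143 FPKM with Ift88 shRNA, 119 in the sheared control and 126 in the static control. Ccl6 was thus lower in both sheared libraries than in the static one, whereas Ccl9 was highest with Ift88 shRNA. The shear ratio was 0.781 (0.750 to 0.813) for Ccl6 and 0.939 (0.916 to 0.963) for Ccl9. The knockdown ratio was 0.949 (0.909 to 0.991) for Ccl6 and 1.205 (1.18 to 1.23) for Ccl9. Ccl9 stood at 1.56 times Ccl6 with Ift88 shRNA (1.503 to 1.61), 1.23 times in the sheared control (1.18 to 1.27) and 1.02 times in the static control. The noncoding gene E230016K23Rik overlaps Ccl6 and was at 0.111 to 0.232 FPKM. Of the stretches of 50 bases in Ccl9, 2.00% occur in transcripts of other genes, and none do in Ccl6, Ccl2, Ccl3, Ccl4, Ccl7 or Pf4.

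**Figure D2:**
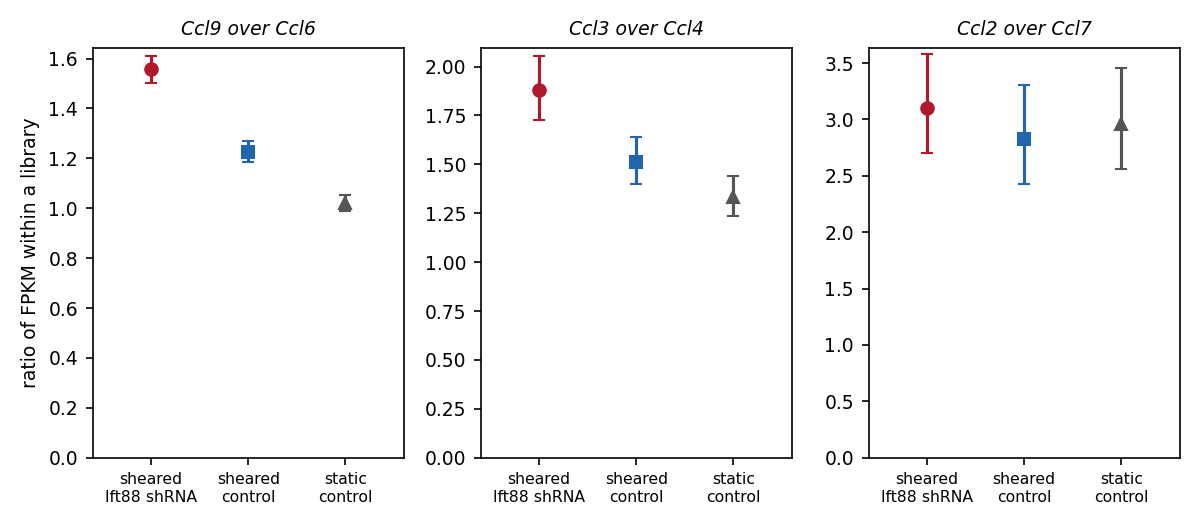
Ratio of FPKM between neighbouring CC genes within each library (Ccl9 over Ccl6, Ccl3 over Ccl4, Ccl2 over Ccl7), with 95% counting intervals, on linear axes that start at 0. The Ccl9 to Ccl6 ratio was 1.56 with Ift88 shRNA, 1.23 in the sheared control and 1.02 in the static control, while the intervals of Ccl2 to Ccl7 overlap in the 3 libraries.

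The knockdown comparison takes the sheared Ift88 shRNA library over the sheared control, and the shear comparison the sheared control over the static control. A gene was counted as different when (FPKM + 1) differed by at least 1.2-fold. In the knockdown comparison Cxcl2, Ccl2 and Ccl9 were counted as higher, 3 of 9, where 3.25% of all 10358 genes were, and Ccl4 as lower, 1 of 9, where 2.29% were. Ccl9 lay close to the limit, with a log2 ratio of 0.27. The median log2 ratio of the 9 genes was 0.029, against 0.010 over all genes. In the shear comparison Cxcl2 and Ccl6 were counted as lower, 2 of 9, where 2.26% of all genes were, and none as higher, where 1.94% were. Including these, 8 of the 9 genes had a log2 ratio below 0, where 53.9% of all genes did, and Ccl3 was among them only at -0.0003. This lean was not particular to the 9 genes. Among other genes past the filter, 6 of 6 other chemokine ligands and 15 of 21 genes of the inflammatory list were also below 0. The median log2 ratio of the 9 genes was -0.13, against -0.011 over all genes. Both comparisons share the sheared control library, so a low value there enters both with opposite signs. Ift88 shRNA over the static control, which does not use that library, had Cxcl2 counted as higher (4.79% of all genes) and Ccl4 and Ccl6 as lower (4.48% of all genes). At 1.5-fold, Cxcl2 alone was counted, as higher in the knockdown comparison (0.28% of all genes higher, 0.203% lower) and as lower in the shear comparison (0.29% lower, 0.164% higher), and none of the 9 was for Ift88 shRNA over the static control (0.338% higher, 0.405% lower). At 2-fold, Cxcl2 was counted as higher in the knockdown comparison (0.0772% higher, 0.0676% lower) and none was in the shear comparison (0.116% higher, 0.164% lower) or for Ift88 shRNA over the static control (0.0869% higher, 0.126% lower).

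**Figure D3:**
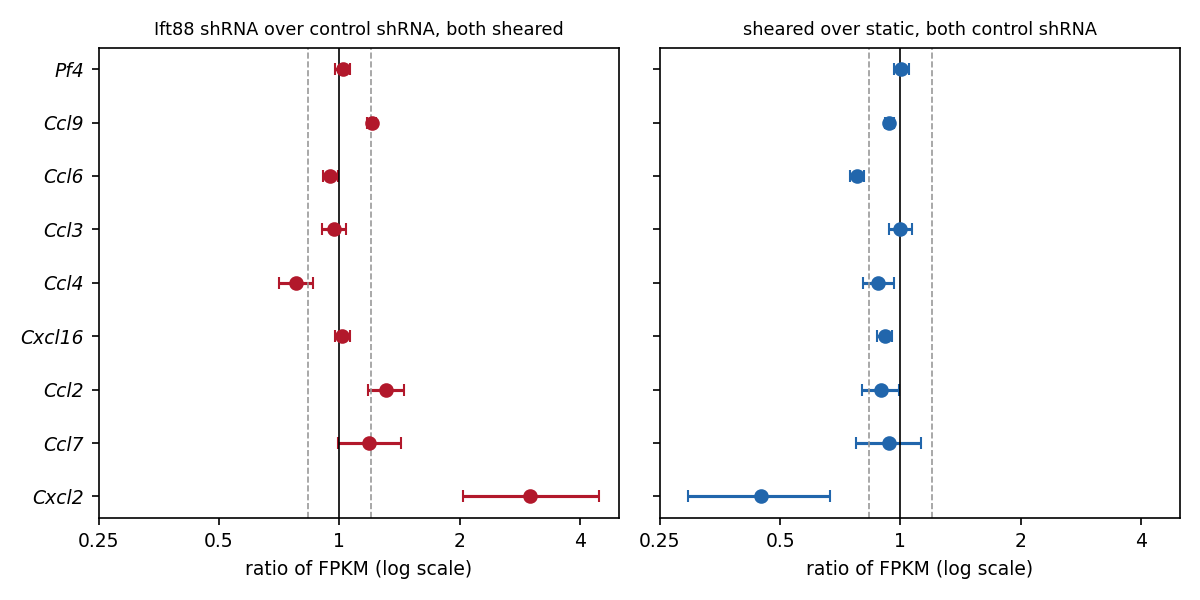
Ratios of FPKM on a log axis with 95% counting intervals for the 9 genes, left for Ift88 shRNA over control shRNA under shear and right for sheared over static cells with control shRNA; dashed lines mark 1.2-fold and the solid line no difference. Cxcl2 lies farthest from 1 in both, at 3.01 and 0.447, and Pf4 and Ccl3 lie near 1 in both.

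**Figure D4:**
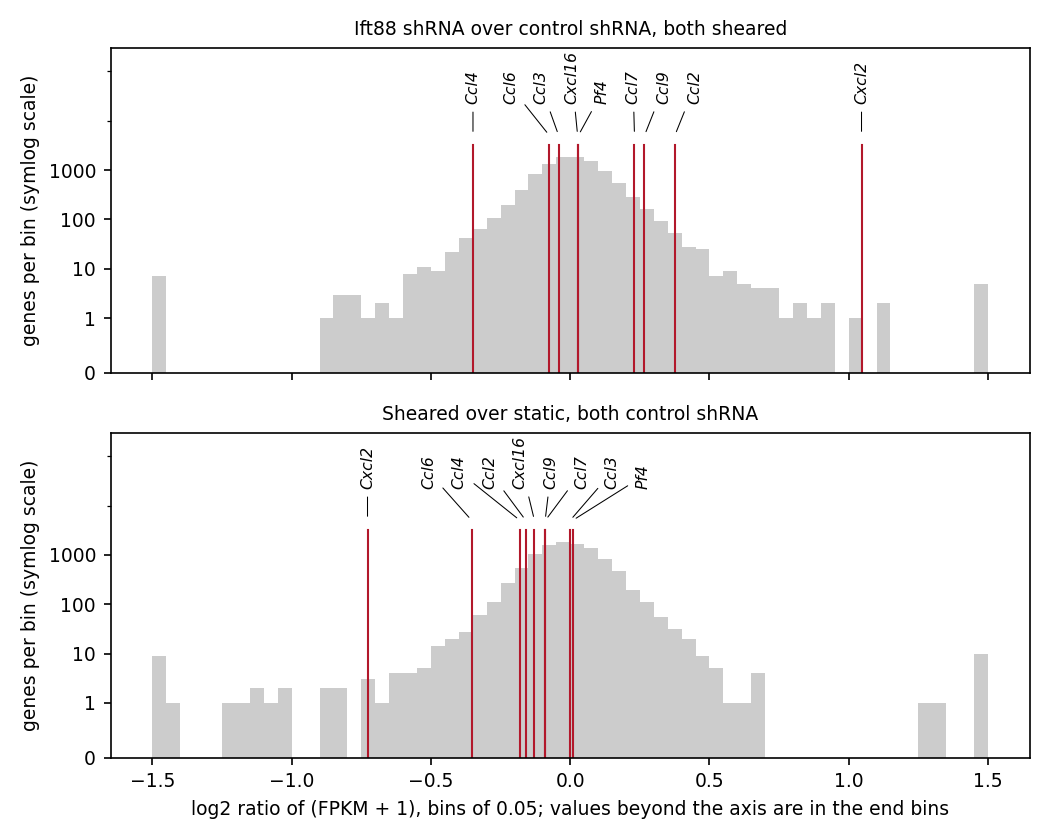
Histogram of the log2 ratio of (FPKM + 1) over 10358 genes in each comparison (grey bars, count axis logarithmic above 1), with red lines at the 9 chemokine genes. Cxcl2 lies in the sparse tails of both, at 1.05 in the knockdown comparison and -0.73 in the shear comparison, and the remaining genes lie between -0.35 and 0.38.

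Of the 32 other chemokine ligand genes in the table, 6 had a mean of at least 1 FPKM and 11 were listed at 0 in every library. Cxcl14, a CXC ligand of wide tissue distribution, was at 55.3 FPKM with Ift88 shRNA, 46.1 in the sheared control and 49.8 in the static control, a knockdown ratio of 1.1996 (1.14 to 1.26). Ccl5, an attractant of T cells and monocytes, was at 5.84, 5.61 and 6.25 FPKM in those libraries. The remaining 4 were between 0.773 and 1.47 FPKM: the neutrophil attractant Cxcl1 (knockdown ratio 1.03, 0.634 to 1.68), the monocyte attractant Ccl8 (1.60, 0.685 to 3.96), Ccl25, a ligand of Ccr9, and Ccl27a, a ligand of Ccr10. These 4 lie near the filter.

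Of the 22 chemokine receptors read from the table, 4 passed the filter. Ccr1, which binds Ccl3, Ccl6 and Ccl9 in mouse, was at 16.3 FPKM with Ift88 shRNA, 9.90 in the sheared control and 10.7 in the static control. Its knockdown ratio was 1.64 (1.51 to 1.79) and its shear ratio 0.923 (0.843 to 1.01). On the (FPKM + 1) scale Ccr1 was the one receptor of the 4 that differed by at least 1.2-fold in the knockdown comparison. None did in the shear comparison. Over all genes 3.25% were higher and 2.29% lower in the knockdown comparison, and 1.94% and 2.26% in the shear comparison. The plain knockdown ratio of Cxcr3 was 0.802 (0.669 to 0.958). The median log2 ratios of the 4 were -0.18 and -0.056. Cxcr3 was at 4.14, 5.16 and 5.20 FPKM, Cxcr4 at 167, 185 and 174 FPKM, and the atypical receptor Ccrl2 at 25.1, 29.2 and 32.8 FPKM, each in the order Ift88 shRNA, sheared control, static control. The receptors of Ccl2 and Cxcl2 were low: Ccr2 was at 0.259, 0.287 and 0.273 FPKM and Cxcr2 at 0.0320, 0.170 and 0.117 FPKM in that order.

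**Figure D5:**
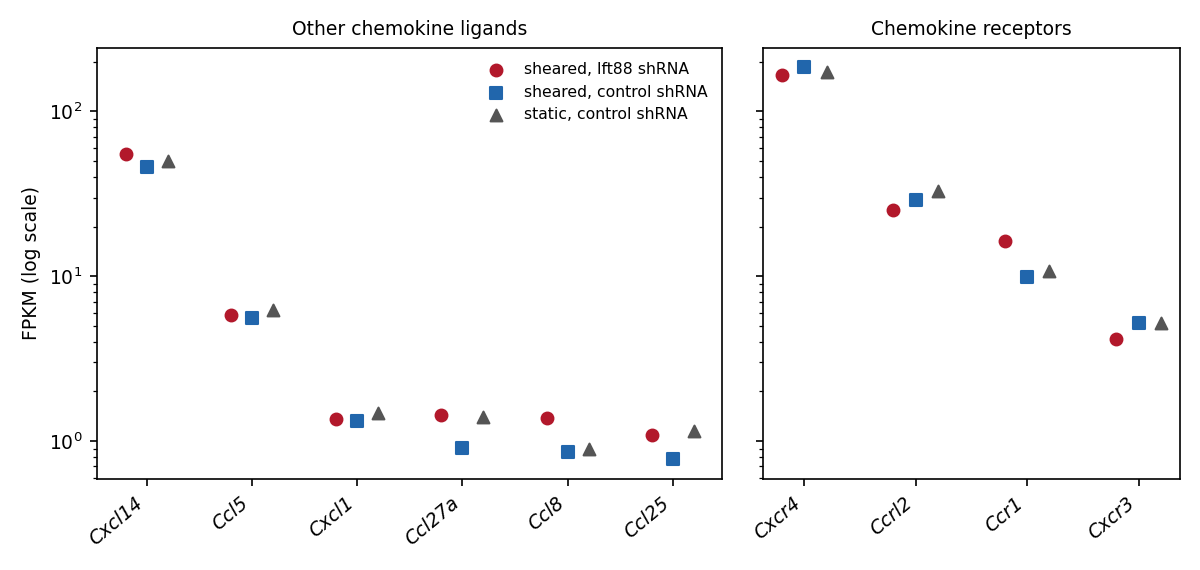
FPKM on a log axis for the 6 other chemokine ligands and 4 chemokine receptors with a mean of at least 1 FPKM, 1 point per library. Ccr1 is highest with Ift88 shRNA, at 16.3 FPKM, while Cxcr4, Ccrl2 and Cxcr3 are lowest there.

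The inflammatory list, cytokines and feedback regulators downstream of NF-kappaB, had 21 of 34 genes past the filter. On the (FPKM + 1) scale, 7 were at least 1.2-fold higher and 1 lower in the knockdown comparison, with a median log2 ratio of 0.099. Over all genes 3.25% were higher and 2.29% lower. In the shear comparison none was past 1.2-fold, with a median of -0.045, where 1.94% of all genes were higher and 2.26% lower. By plain FPKM the shear ratio of Ier3 was 1.22 (0.993 to 1.49). Lcn2, just under the filter at a mean of 0.998 FPKM, had a plain shear ratio of 0.334 (0.168 to 0.624). Nfkbie, an inhibitor of NF-kappaB, was at 19.1 FPKM with Ift88 shRNA, 12.7 in the sheared control and 14.1 in the static control, a knockdown ratio of 1.51 (1.39 to 1.64). Il1rn, the interleukin 1 receptor antagonist, was at 134, 102 and 121 FPKM, and Socs3, a cytokine feedback inhibitor, at 1.79, 1.13 and 1.02 FPKM in those libraries. The abundant genes Tnfaip2 (174, 174 and 180 FPKM) and Saa3 (87.2, 83.7 and 82.4 FPKM) differed by less than 1.1-fold.

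Marker levels of other cells moved in part with these genes. The 8 neutrophil markers in the table summed to 25.1 FPKM with Ift88 shRNA, 20.8 in the sheared control and 53.0 in the static control, with Retnlg listed at 0. S100a9 was at 8.38, 6.66 and 22.3 FPKM, S100a8 at 14.6, 12.6 and 24.2, and Ngp at 1.45, 1.01 and 4.36 in that order. Both sheared libraries were thus below the static one, as for Ccl6. The likeness ends there, since these 3 markers were lowest in the sheared control and Ccl6 was lowest with Ift88 shRNA. The 10 stromal markers summed to 10.1 FPKM with Ift88 shRNA, 7.80 in the sheared control and 10.6 in the static control. The sheared control was lowest, as it was for Cxcl2, Ccl2, Ccl7, Ccl9 and Cxcl16 and for 3405 of all 10358 genes. For Ccl7 the intervals of both ratios include 1, and for Cxcl16 that of the knockdown ratio does. Col1a1 was at 2.52, 1.76 and 2.80 FPKM, Col1a2 at 2.30, 1.74 and 2.69, and Sparc at 2.67, 1.797 and 2.47. Not every stromal marker had this low library, since Pdgfrb was at 0.429, 0.552 and 0.453 FPKM and Pdgfra at 0.0937, 0.0933 and 0.0492. The part of these cells in the chemokine differences was not tested.

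The sheared control was the low library for 3405 of all 10358 genes and for 5 of the 7 osteoclast markers past the filter. The 10 genes of the list summed to 402 FPKM with Ift88 shRNA, 330 in the sheared control and 436 in the static control, with Acp5 (tartrate-resistant acid phosphatase) at 83.0, 52.9 and 97.7 FPKM and Ctsk (cathepsin K) at 18.5, 12.6 and 29.4. The exceptions were Atp6v0d2, at 182, 199 and 211 FPKM, and Itgb3, at 8.12, 7.08 and 5.36. The 7 macrophage markers had no single low library, with 3 lowest with Ift88 shRNA, 3 in the sheared control and 1 in the static control. Over all 10358 genes these numbers were 3511, 3405 and 3442. The macrophage markers Mertk (24.6, 27.7 and 29.0 FPKM) and Fcgr1 (3.49, 4.52 and 5.86 FPKM) were lowest with Ift88 shRNA, as was Ccl4. Csf1r (272, 251 and 248 FPKM) and Cd14 (103, 91.2 and 95.7 FPKM) were highest there, Mrc1 (66.8, 61.4 and 71.1 FPKM) was lowest in the sheared control, and Lyz2 and Cd68 differed by less than 1.1-fold.

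The genes nearest in pattern were found by the distance between their log2 ratios of (FPKM + 1) in the shear and the knockdown comparison, over 3 libraries and 10358 genes. Nearest to Cxcl2 was Mmp9, a matrix protease of osteoclasts, at 85.5 FPKM with Ift88 shRNA, 39.3 in the sheared control and 70.3 in the static control (distance 0.11). That distance depends on the added constant, which draws in the ratios of the low Cxcl2 more than those of Mmp9. By plain FPKM the knockdown ratio was 3.01 for Cxcl2 and 2.18 for Mmp9, and the shear ratio 0.447 and 0.559. Eif3j1 (0.39), Dcstamp (0.39), Evi2a-evi2b (0.42) and Rmrp (0.42) followed at larger distances. Dcstamp, needed for osteoclast fusion, was at 7.27 FPKM with Ift88 shRNA, 3.67 in the sheared control and 5.21 in the static control. Ccl4, the gene of next widest range, had closer neighbours, at 0.034 to 0.047. They were Arhgap19, Lst1, Slc27a6, Tia1 and Gbp6, of which Lst1, a leukocyte transcript, was at 106 FPKM with Ift88 shRNA, 134 in the sheared control and 156 in the static control. With 3 libraries many genes share such an order, so the likeness is a description.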

How the data were processed

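Values are FPKM as deposited by the authors, 1 column per library, in a table of genes with symbols. Build mm10 and the tools Cufflinks 2.2.1, TopHat2 2.0.13, Trimmomatic 0.32 and bcl2fastq 1.8.4 were used, per the submitters' processing notes; settings and strand: not given in the sources used here. FPKM is a share of a library, so abundant genes move all others. Depth was estimated from genes with 1 transcript of at least 1000 bases, with GENCODE M21 lengths. This step, the intervals and the fold limit were tried on simulated whole fragments. There the intervals used the true depth, not an estimate. The fold limit was tried only on simulated 2-fold changes, and false calls were not counted. Fragment estimates used genes with 1 transcript longer than 500 bases. Ratios are plain FPKM ratios; counts and medians use log2(FPKM + 1) over genes that averaged 1 FPKM or more. Named were the 9 genes, other chemokine ligands and receptors with a mean of at least 1 FPKM, up to 3 highest and 2 widest-ranging genes of the remaining lists, and the 5 genes nearest in pattern to the 2 widest-ranging members; Cxcl3, Ccr2, Cxcr2, Gp6, Retnlg, Ier3, Lcn2, Calcr, Oscar, Ocstamp, Itgb3, Pdgfrb, Pdgfra, Cd14 and Mrc1 were added after their values were seen, as were those in the closing section. Some genes of the lists are not reported here. The members and lists were chosen with earlier results of these data known. Alternatives covered the added constant, filter, scaling, transcript length and fold. Python 3.11.15, pandas 2.3.3 and scipy 1.17.1 were used.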

Additional observations from a re-analysis of the deposited data

How the results depend on the processing

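No paired analysis was possible because each group had 1 library. Without the added constant, the log2 ratio of Cxcl2 was 1.59 in the knockdown comparison and -1.16 in the shear comparison. Ccl9 fell short of 1.2-fold in the knockdown comparison when ratios were centred on the median of all genes or in 20 bins of transcript length. With a mean FPKM of at least 5, Cxcl2 was left out, so 1 gene was counted in the shear comparison, lower, and 0 were higher with Ift88 shRNA than in the static control. At 1.5-fold the counts were 1 in the knockdown comparison (1 higher, 0 lower), 1 lower in the shear comparison and 0 in either direction for Ift88 shRNA over the static control. At 2-fold they were 1 (1 higher, 0 lower), 0 and 0. Without Pf4 the summed level was 461 FPKM with Ift88 shRNA, 443 in the sheared control and 495 in the static control. Over the 7 alternatives to the ratios themselves, the sign changed for Ccl3 and Pf4 in the shear comparison only, both near 0 (Pf4 at -0.057 in bins of length). Cxcl2 and Ccl7 rest on the fewest fragments.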

Other observations

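Several chemokine ligand genes below the expression filter were detected at low levels and were chosen here after their values were seen. Ccl24, an eosinophil attractant, was at 0.539 FPKM with Ift88 shRNA, 0.154 in the sheared control and 0.286 in the static control, from an estimated 21, 6 and 11 fragments. The ratio of Ift88 shRNA to the sheared control was 3.51, with a wide interval of 1.37 to 10.6. Ccl22, a ligand of Ccr4, was at 0.296, 0.139 and 0.247 FPKM in those libraries, with a knockdown ratio of 2.13 (0.950 to 5.01). For both genes the sheared control was the low library, as for Cxcl2. Not every ligand below the filter had this low library. Cxcl9 was at 0.0584, 0.103 and 0.153 FPKM and Cxcl5 at 0.0385, 0.0769 and 0.0584 FPKM in those libraries, both lowest with Ift88 shRNA. The interferon-inducible ligand Cxcl10 was at 0.804, 0.679 and 0.786 FPKM, with a knockdown ratio of 1.18 (0.647 to 2.196). The fractalkine receptor gene Cx3cr1, a marker of monocytic precursors, was at 0.710 FPKM with Ift88 shRNA, 0.468 in the sheared control and 0.593 in the static control, a knockdown ratio of 1.52 (1.08 to 2.14). With 1 library per group and few fragments, these values have no replicate check.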
